A study of Mus musculus with 19 samples.

Results

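The 10 genes described here are direct or well-established targets of the transcription factor p53 that act on cell death or cell survival: Bax, Bbc3, Pmaip1, Ei24, Perp, Aen, Fas, Tnfrsf10b, Trp53inp1 and Phlda3. They were found on the array by matching each probe's transcript accession to a gene symbol. All 10 were among the 16535 symbols on the array, and all 10 were among the 19315 genes tested, so none was lost to the filter on dim probes. Of their 14 probes, 13 passed that filter, and each gene was read from its probe with the highest mean lung signal.

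The study measured RNA from a portion of the lung in 19 male MutaMouse animals of transgenic strain 40.6, which all carry the lacZ reporter of that strain, at 25 weeks of age. Mice were gavaged daily for 28 days and lungs were taken 3 days after the last dose. The groups were vehicle control (n = 5, mice 1 to 5) and benzo(a)pyrene (BaP) at 25 mg/kg/day (n = 5, mice 6 to 10), 50 mg/kg/day (n = 4, mice 12 to 15) and 75 mg/kg/day (n = 5, mice 16 to 20). The dosed groups are called the 25, 50 and 75 mg groups, after the daily dose per kg. BaP is a combustion product that lung and liver enzymes turn into a DNA-binding metabolite. Each lung RNA (Cy5) was hybridised beside a purchased reference RNA from mouse cell lines (Cy3) on a 2-colour Agilent array, with no dye swap. Every value below is a log2 ratio of lung over reference or a difference of such ratios. Each mouse had its own array, and the number of arrays limits the precision.

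p53 is stabilised when DNA is damaged and then raises transcription of genes that stop the cell cycle, repair DNA or start apoptosis. In the mitochondrial route, the BH3-only proteins Bbc3 (PUMA) and Pmaip1 (NOXA) neutralise survival members of the BCL-2 family, and Bax opens the outer mitochondrial membrane. In the receptor route, Fas and Tnfrsf10b (the mouse TRAIL receptor) bind death ligands at the cell surface. Phlda3 competes with the kinase Akt for membrane lipids and so restrains a survival signal.

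In the lung channel each array had between 19777 and 27279 non-control spots well above background, and none saturated. The alveolar markers were high in every lung: the Sftpc ratio lay between 6.02 and 8.02 and the Ager ratio between 4.76 and 5.55. The arrays sat on 6 slides, and 4 arrays (control mice 1 and 3, mouse 12 and mouse 20) were marked for evaluation by the scanner's quality report. Control mouse 5 stood apart with a mean ratio over 10 skeletal muscle markers 4.28 above the control mean on the log2 scale, against -1.88 to -0.58 in the other 18 mice. Leaving it out changed the number of the 10 genes called against control at no dose except 75 mg/kg/day, where 6 in place of 7 were called. Because these are whole-tissue samples, a change in the number of cells of a type and a change in RNA per cell cannot be told apart.

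The death and survival targets rose with dose, but unevenly. Bax, Ei24, Aen, Trp53inp1 and Phlda3 rose most clearly. Pmaip1 and Bbc3 passed the test against control in the 75 mg group alone, Bbc3 by a narrow margin (limma adjusted p = 0.042). The death receptors and Perp did not pass it at any dose. Tnfrsf10b, with most controls not well above background, had an adjusted p of 0.075 in the 75 mg group. Against control, 4 of the 10 genes rose in the 25 mg group (Bax, Ei24, Trp53inp1 and Phlda3), 5 in the 50 mg group (Aen in addition) and 7 in the 75 mg group (Bbc3 and Pmaip1 in addition), and none fell. Called means a limma p-value below 0.05 after Benjamini-Hochberg adjustment over all 19315 genes. Of all genes, 0.0414% were called higher in the 25 mg group, 0.746% in the 50 mg group and 2.64% in the 75 mg group. The shares called lower were 0.0104%, 0.337% and 1.51% at the 3 doses, and those called in either direction 0.0518%, 1.08% and 4.15%. The median log2 difference of the 10 genes was 0.56, 0.82 and 0.97 at the 3 doses in rising order, beside 0.01, 0 and -0.01 for all genes tested. Every treated mouse lay above every control mouse for 4, 6 and 5 of the 10 genes at the 3 doses in the same order, beside 0.994%, 2.54% and 3.05% of all genes. None of the 10 genes lay wholly below the controls at any dose, beside 0.456%, 1.96% and 1.66% of all genes.

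**Figure D1:**
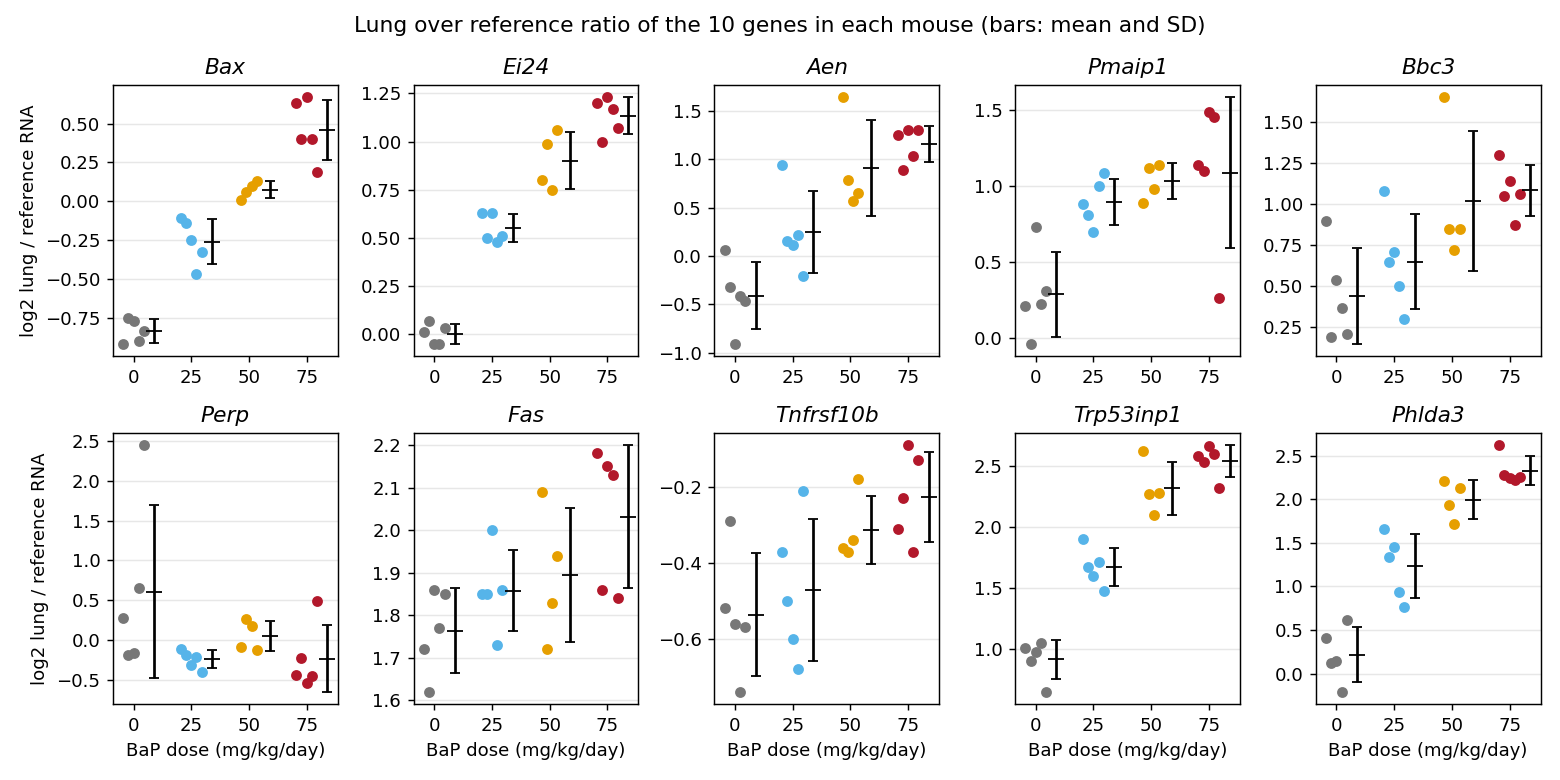
Log2 lung over reference ratio (vertical axis, a separate scale in each panel) of each of the 10 genes in each of 19 mice by BaP dose (0, 25, 50 and 75 mg/kg/day), with points for mice and bars for the group mean and SD. Bax, Ei24, Trp53inp1 and Phlda3 separate every treated mouse from the 5 controls at each dose, while Fas, Tnfrsf10b and Perp overlap the controls at every dose.

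The counts at the lowest dose were the least stable. At 25 mg/kg/day, 1 of the 10 genes, Trp53inp1, was called when slide 5 was left out and also when the marked arrays were left out, 2 genes when any of control mouse 4, mouse 7 or mouse 8 was left out, 3 with the slide as a block, and 0 when arrays were centred on their medians in place of loess. At 50 mg/kg/day, 2 of the 10 genes were called with median centring, and in the 75 mg group between 5 and 8 were called under every alternative run.

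**Figure D2:**
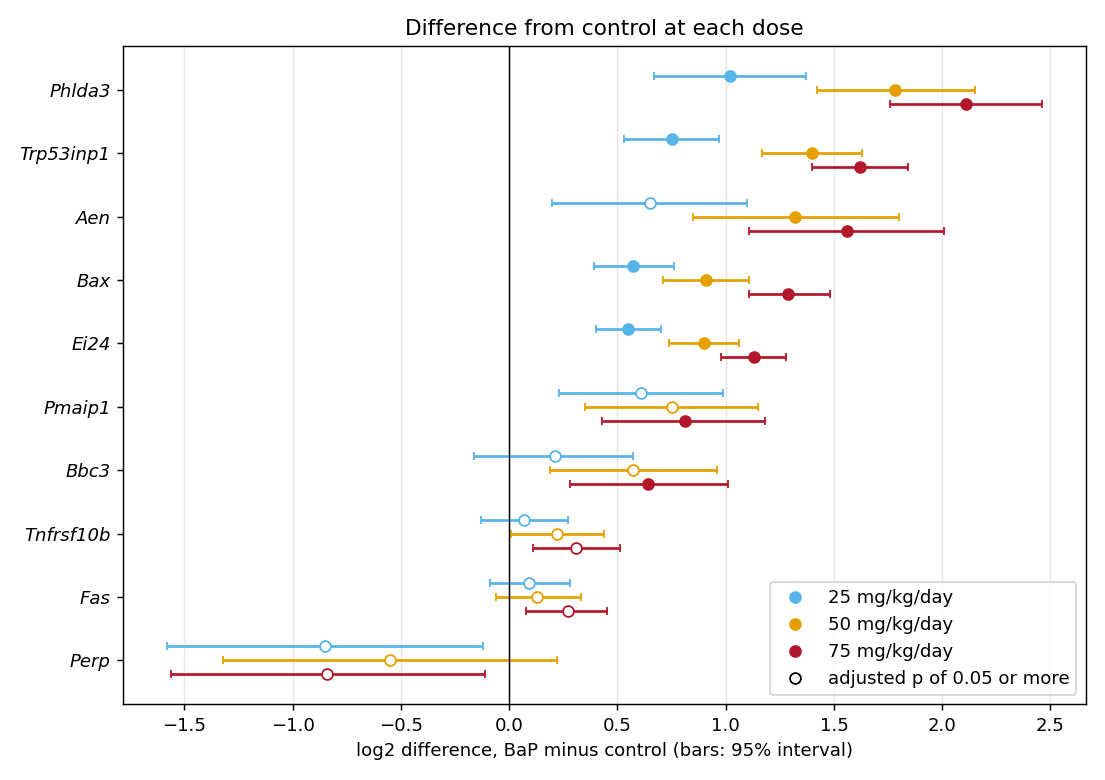
Log2 difference of BaP minus control (horizontal axis) for the 10 genes (vertical axis) at 25, 50 and 75 mg/kg/day, with 95% intervals from limma; filled points have an adjusted p below 0.05. The estimates in the 75 mg group run between -0.84 for Perp and 2.11 for Phlda3, and filled points number 4, 5 and 7 at the 3 doses.

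Promoter windows (RefSeq, GRCm38.p6, 250 bases before to 50 after each annotated start) were available for 6 of the 10 genes: Bax, Bbc3, Ei24, Aen, Fas and Phlda3. They were searched on both strands for the p53 consensus half-site of 10 bases and for a full site, meaning a pair of half-sites at most 13 bases apart, each with an intact core of 4 bases, with at most 2 mismatches in all. A perfect half-site lay in a window of Bax, Aen and Ei24, so in 3 of 6 genes, beside 9.6% of the 27025 genes in the promoter table. A full site lay in the window of Bax alone among the 6, beside 2.47% of all genes. The windows of Bax, Ei24 and Aen are printed because they hold a match, and that of Phlda3, the gene with the largest rise, as 1 that holds none. Capitals mark the best-matching full site in Bax and the half-site in Ei24 and Aen. The windows are chr7:45466849-45467148 (minus strand) for Bax, chr9:36797285-36797584 (minus strand) for Ei24, chr7:78895677-78895976 (plus strand) for the first of the Aen starts and chr1:135765835-135766134 (plus strand) for Phlda3.
Bax: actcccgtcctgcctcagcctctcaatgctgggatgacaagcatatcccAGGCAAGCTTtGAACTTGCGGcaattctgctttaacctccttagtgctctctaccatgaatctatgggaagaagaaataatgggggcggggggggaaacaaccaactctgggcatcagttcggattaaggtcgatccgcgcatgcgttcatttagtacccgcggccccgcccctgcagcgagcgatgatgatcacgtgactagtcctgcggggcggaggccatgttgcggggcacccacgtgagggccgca
Ei24: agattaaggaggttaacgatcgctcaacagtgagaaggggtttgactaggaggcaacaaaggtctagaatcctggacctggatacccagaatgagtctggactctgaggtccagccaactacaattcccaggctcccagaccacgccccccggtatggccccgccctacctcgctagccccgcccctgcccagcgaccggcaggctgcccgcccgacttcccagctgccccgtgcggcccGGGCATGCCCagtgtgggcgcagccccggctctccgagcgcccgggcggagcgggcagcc
Aen: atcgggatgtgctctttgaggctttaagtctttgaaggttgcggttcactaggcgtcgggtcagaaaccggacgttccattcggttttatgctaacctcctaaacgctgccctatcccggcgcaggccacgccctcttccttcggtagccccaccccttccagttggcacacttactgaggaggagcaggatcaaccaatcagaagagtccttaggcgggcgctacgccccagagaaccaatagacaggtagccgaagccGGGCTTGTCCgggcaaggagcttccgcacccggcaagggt
Phlda3: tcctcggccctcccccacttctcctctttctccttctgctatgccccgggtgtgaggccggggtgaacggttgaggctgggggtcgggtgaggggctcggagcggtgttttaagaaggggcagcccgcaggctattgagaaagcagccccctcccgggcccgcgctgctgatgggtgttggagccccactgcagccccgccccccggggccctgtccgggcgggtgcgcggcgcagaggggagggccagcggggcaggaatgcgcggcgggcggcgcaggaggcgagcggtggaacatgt
The Bax match lies at positions -201 to -181 relative to the start, with a spacer of 1 base and 2 mismatches, all in its second half-site. The Ei24 half-site covers the 10 bases just before the start, and the Aen half-site begins 10 bases after the printed start. A match describes these letters only, and a window with no match says nothing about sites elsewhere.

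Bax, the pore-forming BCL-2 protein, had log2 ratios of -0.92, -0.75, -0.77, -0.90 and -0.84 in the 5 control mice. It had -0.11, -0.14, -0.25, -0.47 and -0.33 in the 25 mg group, 0.01, 0.06, 0.10 and 0.13 in the 50 mg group, and 0.63, 0.40, 0.67, 0.40 and 0.19 in the 75 mg group. The 4 groups did not overlap at any point, so every mouse lay above every mouse of each lower dose. Bax was 1.49-fold higher than in control in the 25 mg group (limma adjusted p = 0.015), 1.88-fold in the 50 mg group (adjusted p = 2.6e-05) and 2.45-fold in the 75 mg group (95% interval 2.16 to 2.79, adjusted p = 3.3e-08). The call in the 25 mg group was lost in 8 of 32 alternatives (adjusted p between 0.0065 and 0.83), among them the slide as a block (log2 difference 0.55, adjusted p = 0.055). The Bax probe was printed 10 times on each array, and the median SD among these single spots within an array was 0.11. The value of a mouse is the average of its spots. The SD of these averages between mice, a measure unlike that of single spots, was 0.20 in the 75 mg group and 0.076 in control.

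Ei24, an endoplasmic reticulum protein first found as a gene induced by p53 and etoposide, followed Bax more closely than any other of the 10 genes did. Over the 14 treated mice, the root mean square difference between the rises of Ei24 and Bax above their control means was 0.15 on the log2 scale, the smallest of the 45 pairs. Ei24 had ratios of 0.01, 0.07, -0.05, -0.05 and 0.03 in control mice, 0.63, 0.50, 0.63, 0.48 and 0.51 in the 25 mg group, 0.80, 0.99, 0.75 and 1.06 in the 50 mg group, and 1.20, 1.00, 1.23, 1.17 and 1.07 in the 75 mg group. No treated mouse overlapped the controls, and only the 50 and 75 mg/kg/day groups overlapped each other. The fold over control was 1.46, 1.86 and 2.19 at the 3 doses in rising order, with limma adjusted p-values of 0.0048, 2.2e-06 and 2e-08.

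Aen, a nuclease that cuts DNA in dying cells, had ratios of 0.06, -0.32, -0.91, -0.42 and -0.47 in control mice, 0.94, 0.15, 0.11, 0.22 and -0.21 in the 25 mg group, 1.64, 0.78, 0.57 and 0.65 in the 50 mg group, and 1.25, 0.89, 1.30, 1.03 and 1.30 in the 75 mg group. Every mouse at 50 and 75 mg/kg/day lay above every control, and in the 25 mg group mouse 10 fell within the control range. Its 1.57-fold difference in the 25 mg group did not pass (limma adjusted p = 0.42), and Aen rose 2.50-fold in the 50 mg group (adjusted p = 0.0051) and 2.95-fold in the 75 mg group (95% interval 2.16 to 4.03, adjusted p = 0.00019). The spread within groups was wider than for Bax or Ei24, with an SD of 0.49 in the 50 mg group. A second, dim Aen probe was well above background in 3 of 5 mice in the 75 mg group and in 0 of 5 controls. The log2 difference measured by this probe in the 75 mg group was 0.27 ± 0.09 (SE, limma adjusted p over probes = 0.10). The probe passed the filter only through treated mice, so it does not settle the true size of the difference.

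Pmaip1, a BH3-only protein, had ratios of 0.21, -0.04, 0.73, 0.22 and 0.31 in control mice, 0.88, 0.81, 0.70, 1.00 and 1.09 in the 25 mg group, 0.89, 1.12, 0.98 and 1.14 in the 50 mg group, and 1.14, 1.10, 1.49, 1.46 and 0.26 in the 75 mg group. The Pmaip1 estimate in the 25 mg group was 76.1% of that in the 75 mg group on the log2 scale. The 1.53-fold and 1.68-fold differences at 25 and 50 mg/kg/day did not pass (limma adjusted p = 0.39 and 0.068), and it rose 1.75-fold in the 75 mg group (95% interval 1.34 to 2.27, adjusted p = 0.014). Mouse 20, whose array was marked for evaluation, held the value of 0.26, within the control range. Without mouse 20 the log2 difference was 0.75 in the 50 mg group (limma adjusted p = 0.0064) and 1.01 in the 75 mg group (adjusted p = 0.00014), so the middle dose was then called too. With the slide as a block the 50 mg group was also called (0.85, adjusted p = 0.033). Without mouse 18 the call in the 75 mg group was lost (adjusted p = 0.052).

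Bbc3, the other BH3-only protein, had ratios of 0.90, 0.19, 0.54, 0.37 and 0.21 in control mice, 1.08, 0.65, 0.71, 0.50 and 0.30 in the 25 mg group, 1.65, 0.85, 0.72 and 0.85 in the 50 mg group, and 1.30, 1.05, 1.14, 0.87 and 1.06 in the 75 mg group. The 75 mg/kg/day mice overlapped the controls in 1 value, since mouse 19 at 0.87 lay below control mouse 1 at 0.90. Its differences at 25 and 50 mg/kg/day did not pass (1.15-fold, limma adjusted p = 0.83, and 1.49-fold, adjusted p = 0.16), and its 1.56-fold difference in the 75 mg group (95% interval 1.21 to 2.01) passed by a narrow margin (adjusted p = 0.042). That call was lost in 15 of 32 alternatives, with an adjusted p between 0.0012 and 0.12.

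Slide 5 stood out for Aen and Bbc3. It carried control mouse 1, mouse 6 (25 mg/kg/day), mouse 12 (50 mg/kg/day) and mouse 20 (75 mg/kg/day), and 3 of its 4 arrays were marked for evaluation. For Aen, the slide 5 mouse was the highest of its group in all 4 groups (tied with mouse 18 in the 75 mg group to 2 decimals), on average 0.51 above the group mean. For Bbc3 it was the highest in 3 of 4 groups, on average 0.37 above the group mean. Pmaip1 went the other way on slide 5, with a mean deviation from the group mean of -0.27 (between -0.83 and -0.02). Without slide 5 the log2 differences in the 75 mg group were 1.64 for Aen (limma adjusted p = 5.1e-06) and 0.76 for Bbc3 (adjusted p = 0.0012). Within slides that held both a control and a 75 mg/kg/day mouse, the treated mouse was higher in 4 of 4 for Aen, by 1.24 to 1.80, and in 4 of 4 for Bbc3, by 0.15 to 0.77. The part of slide or scan in these values was not tested further.

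**Figure D3:**
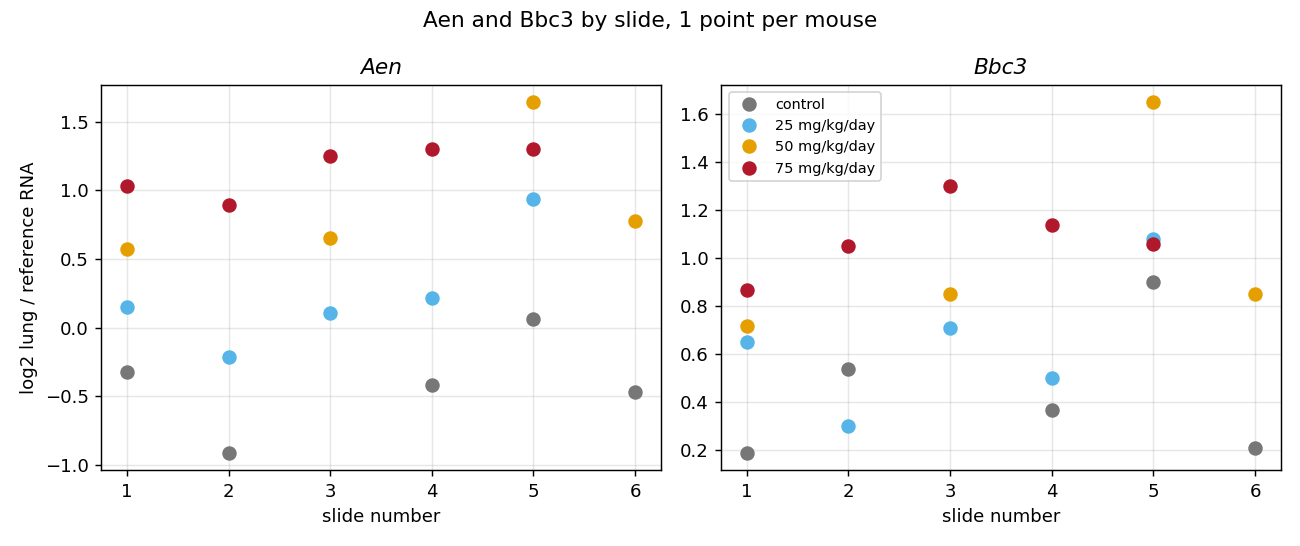
Log2 lung over reference ratio (vertical axis) of Aen and Bbc3 by slide number (horizontal axis), 1 point per mouse, coloured by BaP dose. On slide 5 the Aen values were 0.06, 0.94, 1.64 and 1.30 and the Bbc3 values 0.90, 1.08, 1.65 and 1.06 in the mice given 0, 25, 50 and 75 mg/kg/day.

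Perp, a membrane protein of desmosomes that p53 and p63 switch on, was the exception among the effectors. Its ratios were 0.28, -0.19, -0.17, 0.65 and 2.45 in control mice, -0.11, -0.19, -0.31, -0.21 and -0.40 in the 25 mg group, -0.09, 0.26, 0.17 and -0.13 in the 50 mg group, and -0.44, -0.23, -0.54, -0.45 and 0.49 in the 75 mg group. The groups overlapped at every dose, and 1 control mouse, number 5, lay far above all others. The log2 difference was -0.85 ± 0.35 (SE) in the 25 mg group, -0.55 ± 0.37 in the 50 mg group and -0.84 ± 0.35 in the 75 mg group, none past the test (limma adjusted p = 0.56, 0.57 and 0.21). Without control mouse 5 the differences were -0.39 ± 0.19, -0.09 ± 0.20 and -0.38 ± 0.19 in the same order of doses (adjusted p = 0.56, 0.90 and 0.31).

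Genes of basal and stratified epithelium were also high in control mouse 5. In control mouse 5 the ratios of the keratins Krt5, Krt14 and Krt15 were 3.12, 3.09 and 3.07 and that of Trp63, which encodes p63, was 2.24. In the other 18 mice the highest values were 2.03 for Krt5, -0.55 for Krt14, 2.17 for Krt15 and 0.90 for Trp63. The Trp63 probe was well above background on 4 of 19 arrays and those of Krt5 and Krt15 on 13. Beside control mouse 5, the mice with a Krt5 ratio above 1 were control mouse 4 (2.03), mouse 13 (1.75) and mouse 14 (1.67) in the 50 mg group, and mouse 20 (1.14) in the 75 mg group. These were also the highest mice for Perp in the 50 and 75 mg/kg/day groups and the next highest control after mouse 5. In the order given, their Krt15 ratios were 2.17, 1.41, 1.78 and 0.55. Krt14 did not follow in these mice, with ratios of -0.76, -1.12, -0.83 and -0.91, against -0.55 in control mouse 2. The part of basal or stratified epithelium in the Perp values was not tested.

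**Figure D4:**
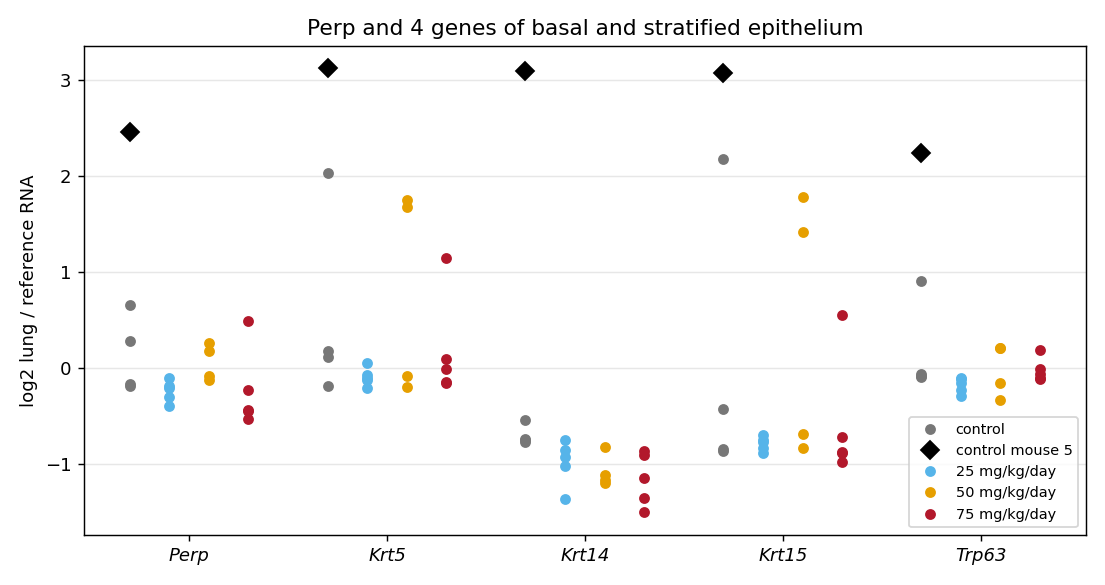
Log2 lung over reference ratio (vertical axis) of Perp, Krt5, Krt14, Krt15 and Trp63 in 19 mice, with 1 column of points per dose group within each gene and control mouse 5 as a black diamond. Control mouse 5 is the highest of all 19 mice for each of the 5 genes, at 2.45, 3.12, 3.09, 3.07 and 2.24.

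Neither death receptor passed the test against control. Fas had ratios of 1.72, 1.62, 1.86, 1.77 and 1.85 in control mice, 1.85, 1.85, 2.00, 1.73 and 1.86 in the 25 mg group, 2.09, 1.72, 1.83 and 1.94 in the 50 mg group, and 2.18, 1.86, 2.15, 2.13 and 1.84 in the 75 mg group. Each dose group overlapped the controls. The Fas difference was 1.07-fold and 1.10-fold at 25 and 50 mg/kg/day (limma adjusted p = 0.85 and 0.60) and 1.20-fold in the 75 mg group (95% interval 1.06 to 1.37, adjusted p = 0.10). Like Bax, Fas was read from 10 spots per array, with a median within-array SD of 0.12, and its interval in the 75 mg group ends below the 2.16-fold lower limit of Bax.

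Tnfrsf10b was faint in these lungs. Its brightest probe was well above background in 1 of 5 controls, 4 of 5 mice in the 25 mg group, 4 of 4 in the 50 mg group and 5 of 5 in the 75 mg group. Its ratios were -0.52, -0.29, -0.56, -0.74 and -0.57 in control mice, -0.37, -0.50, -0.60, -0.68 and -0.21 in the 25 mg group, -0.36, -0.37, -0.34 and -0.18 in the 50 mg group, and -0.31, -0.23, -0.09, -0.37 and -0.13 in the 75 mg group. Most of the 75 mg/kg/day values lay above most controls, but control mouse 2 at -0.29 overlapped them. The log2 difference measured in the 75 mg group was 0.31 ± 0.10 (limma adjusted p = 0.075). Since 4 of 5 controls were not well above background, its true size is not settled by this probe. It passed in 4 of 31 alternatives, with an adjusted p between 0.0024 and 0.24, and was 1.1 when computed from the scanner's processed signals. The slope over all 19 mice was 0.11 ± 0.03 per 25 mg/kg/day (adjusted p = 0.034). That call was lost without any of control mice 1, 3, 4 and 5 or mice 17, 18 and 20, without the marked arrays and without slide 5. A second probe gave a log2 difference of 0.19 in the 75 mg group (adjusted p over probes = 0.21).

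Trp53inp1, a stress protein that acts in p53-dependent death and in autophagy, had ratios of 1.01, 0.90, 0.98, 1.05 and 0.65 in control mice, 1.90, 1.67, 1.60, 1.71 and 1.48 in the 25 mg group, 2.62, 2.27, 2.10 and 2.28 in the 50 mg group, and 2.58, 2.53, 2.66, 2.60 and 2.32 in the 75 mg group. The control, 25 and 50 mg/kg/day groups were separate from each other, and the 50 and 75 mg/kg/day groups overlapped. Trp53inp1 was 1.68-fold higher than in control in the 25 mg group (limma adjusted p = 0.0048), 2.64-fold in the 50 mg group (adjusted p = 1e-06) and 3.07-fold in the 75 mg group (95% interval 2.64 to 3.58, adjusted p = 2e-08). A second Trp53inp1 probe gave log2 differences of 0.65, 1.18 and 1.48 at 25, 50 and 75 mg/kg/day, beside 0.75, 1.40 and 1.62 for the probe used. Aen was the gene of the 10 nearest to it over the treated mice, with a root mean square difference of 0.25.

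Phlda3, the Akt restraint, had the largest rise of the 10 genes at each dose. Its ratios were 0.41, 0.12, 0.14, -0.21 and 0.62 in control mice, 1.66, 1.34, 1.45, 0.94 and 0.77 in the 25 mg group, 2.21, 1.93, 1.72 and 2.13 in the 50 mg group, and 2.62, 2.28, 2.25, 2.22 and 2.26 in the 75 mg group. Each dose group lay wholly above the group below it. Before normalization, the lung signal of its probe above background was between 20600 and 39900 in the 75 mg group and between 2780 and 7780 in control. Phlda3 was 2.03-fold higher than in control in the 25 mg group (limma adjusted p = 0.022), 3.44-fold in the 50 mg group (adjusted p = 1.4e-05) and 4.32-fold in the 75 mg group (95% interval 3.39 to 5.50, adjusted p = 2.2e-07). By size of the difference it was number 8, 6 and 7 among the 19315 genes at 25, 50 and 75 mg/kg/day, counted from the largest rise. Its call in the 25 mg group was lost in 10 of 32 alternatives (limma adjusted p between 0.0066 and 0.83 over all of them). It was lost without any of control mice 2, 3 and 4 or mice 6, 7 and 8, with an adjusted p between 0.064 and 0.087. It was also lost without the marked arrays (adjusted p = 0.11), without slide 5 (adjusted p = 0.15), with the lung channel alone and with median centring.

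Differences between doses were also tested. At 75 against 25 mg/kg/day, 4 of the 10 genes rose (Bax, Ei24, Trp53inp1 and Phlda3), beside 0.383% of all genes called higher. At an unadjusted p below 0.05 there were 7 of the 10, beside 6.84% of all genes, and 4 of the 10 did not overlap between the groups, beside 1.33% of all genes. The fold was 2.13 for Phlda3 (limma adjusted p = 0.0023), 1.83 for Trp53inp1, 1.65 for Bax and 1.5 for Ei24 (adjusted p = 0.00032 for each of the 3). Aen was 1.88-fold higher in the 75 than in the 25 mg group and missed the threshold (adjusted p = 0.068), which it passed with the slide as a block. Pmaip1 was 1.14-fold higher (95% interval 0.879 to 1.49, adjusted p = 0.97). The limma slope over all 19 mice was called for 8 of the 10 genes, all upward, beside 2.82% of all genes upward and 4.64% in either direction, with Fas (adjusted p = 0.080) and Perp (adjusted p = 0.32) not called. The count includes Tnfrsf10b, which passed the filter mainly through treated mice, and 7 of 9 genes were called when every array had to be well above background. The slope of log2 ratio per 25 mg/kg/day was 0.71 ± 0.06 for Phlda3, 0.55 ± 0.04 for Trp53inp1, 0.53 ± 0.07 for Aen, 0.42 ± 0.03 for Bax, 0.37 ± 0.03 for Ei24, 0.25 ± 0.06 for Pmaip1 and 0.23 ± 0.05 for Bbc3 (SE). The slope call of Pmaip1 was lost without any of control mouse 2, mouse 18 and mouse 19, and with the lung channel alone.

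Neighbouring doses were harder to separate. Between 50 and 25 mg/kg/day, 0 of the 10 genes and 0.0104% of all genes were called higher by limma, with 5 of the 10 genes at an unadjusted p below 0.05, beside 3.83% of all genes. Between 75 and 50 mg/kg/day, 0 of the 10 genes and 0 of all genes were called, with Bax and Ei24 at an unadjusted p below 0.05, beside 4.89% of all genes. Even so, no mouse in the 50 mg group overlapped the 25 mg/kg/day mice for 4 of the 10 genes (Bax, Ei24, Trp53inp1 and Phlda3), beside 0.694% of all genes, and no mouse in the 75 mg group overlapped the 50 mg/kg/day mice for 2 (Bax and Phlda3), beside 1.11%.

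The steps between doses shrank toward the top for some genes. For Phlda3 the step in log2 ratio was 1.02 between 0 and 25, 0.77 between 25 and 50 and 0.33 between 50 and 75 mg/kg/day. For Trp53inp1 the steps were 0.75, 0.65 and 0.22, and for Aen 0.65, 0.67 and 0.24. Bax rose by 0.57, 0.34 and 0.38. The estimate in the 50 mg group was 84.5% of that in the 75 mg group for Phlda3, 86.3% for Trp53inp1 and 70.3% for Bax. A limma test of curvature (the last step minus the first) called 0 of the 10 genes and 0 of all genes, with 4 of the 10 at an unadjusted p below 0.05, beside 4.92% of all genes. The curvature of Phlda3 was -0.69 ± 0.24 (unadjusted p = 0.010, adjusted p = 0.93) and that of Trp53inp1 -0.53 ± 0.15 (unadjusted p = 0.0024, adjusted p = 0.93).

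The rises sat in the lung channel. With the lung channel taken alone, the log2 difference in the 75 mg group was 2.12 for Phlda3, 1.75 for Aen, 1.54 for Trp53inp1, 1.34 for Bax and 1.18 for Ei24. In the reference channel, the 10 genes differed between dose groups and control by -0.10 to 0.19, with limma adjusted p-values of 0.50 or more. The largest of these was 0.19 for Aen in the 75 mg group, in the direction that lowers its ratio.

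Mice of a dose group did not rank alike for every gene. At 75 mg/kg/day mouse 18 was the highest of its group for 5 of the 10 genes and mouse 20 the lowest for 4. At 25 mg/kg/day mouse 6 was the highest for 6 and mouse 10 the lowest for 5.

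RNA of the p53 gene itself did not pass the test at any dose: the Trp53 log2 difference was 0.00 ± 0.09, 0.03 ± 0.09 and -0.02 ± 0.09 at 25, 50 and 75 mg/kg/day (limma adjusted p of 0.93 or more). Among 28 tested p53 targets outside the death and survival group, 2 rose in the 25 mg group, 8 rose in the 50 mg group, and 11 rose and 1 fell (Sesn1) in the 75 mg group, with median log2 differences of 0.10, 0.25 and 0.26. Of all genes, 0.0414%, 0.746% and 2.64% were called higher at the same doses, and 1.51% lower in the 75 mg group. Cdkn1a (p21), the cell cycle inhibitor, had ratios of 2.40, 1.89, 2.51, 1.27 and 1.56 in the 75 mg group, against -1.67, -1.30, -1.38, -1.44 and -0.95 in control, a log2 difference of 3.28 ± 0.23 (adjusted p = 3.3e-08). The groups did not overlap, and the difference was larger than that of Phlda3. Gdf15, a stress cytokine, differed by 3.16 ± 0.20, Ccng1, a cyclin, by 2.30 ± 0.19, and Psrc1, a spindle protein, by 1.77 ± 0.20. Mdm2, which marks p53 for degradation, differed by 1.12 ± 0.14 (adjusted p = 5.4e-05).

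**Figure D5:**
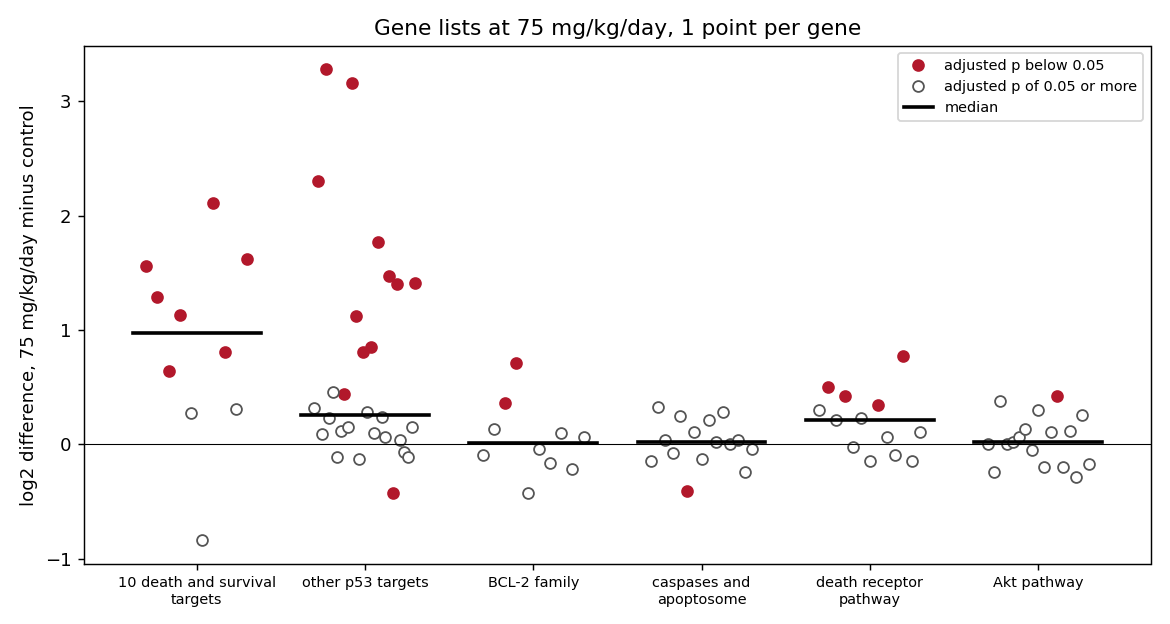
Log2 difference of 75 mg/kg/day minus control (vertical axis) for each tested gene of 6 lists (horizontal axis), 1 point per gene, filled where the limma adjusted p was below 0.05, with a line at each list's median. The medians were 0.97 for the 10 death and survival targets, 0.26 for other p53 targets, 0.01 for the BCL-2 family, 0.02 for caspases and the apoptosome, 0.21 for the death receptor pathway and 0.02 for the Akt pathway.

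Other genes of the apoptosis machinery were read against the 4.15% of all genes called in either direction in the 75 mg group. Of 10 tested BCL-2 family genes other than the 3 above, 0, 1 and 2 rose at 25, 50 and 75 mg/kg/day, with median log2 differences of 0.05, 0.04 and 0.01. Bcl2l1 (BCL-XL), a survival protein, had ratios of 1.65, 1.54, 1.80, 1.28 and 1.25 in the 75 mg group, against 0.78, 0.73, 0.86, 0.88 and 0.74 in control. The groups did not overlap, and the log2 difference was 0.71 ± 0.10 (limma adjusted p = 0.0003). The other was Bcl2, also a survival protein, at 0.36 ± 0.07 (adjusted p = 0.0059), named here after its value was seen. The pro-death genes Bak1, Bid and Bcl2l11 had differences of 0.13, -0.16 and -0.43 in the 75 mg group and did not pass (adjusted p = 0.73, 0.50 and 0.051). The survival genes Mcl1 and Bcl2l2 had differences of 0.06 and -0.04 and did not pass either (adjusted p = 0.67 and 0.91).

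Of 15 tested caspase and apoptosome genes, none rose at any dose and 1 fell in the 75 mg group, with medians of 0.03, 0.01 and 0.02 at the 3 doses in rising order. That gene was Casp2, an initiator caspase, at -0.41 ± 0.09 (limma adjusted p = 0.015), named after its value was seen. Apaf1, the apoptosome scaffold and itself a known p53 target, differed by 0.33 ± 0.09 and missed the threshold (adjusted p = 0.055). Birc2 and Birc3, inhibitors of apoptosis, differed by 0.04 and -0.08 and did not pass.

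Of 13 tested death receptor pathway genes, 0, 1 and 4 rose at 25, 50 and 75 mg/kg/day, with medians of 0.13, 0.04 and 0.21. Tnfsf10 (TRAIL), the ligand of Tnfrsf10b, had ratios of 2.63, 1.99, 2.62, 2.53 and 2.18 in the 75 mg group, against 1.52, 1.21, 1.69, 1.97 and 1.71 in control. The log2 difference was 0.77 ± 0.16 (limma adjusted p = 0.0073), with mouse 17 at 1.99 just above control mouse 4 at 1.97. Cflar (c-FLIP), which blocks caspase 8 at the receptor, differed by 0.50 ± 0.11 (adjusted p = 0.014). The others were Faim, an inhibitor of Fas-driven death, at 0.42 ± 0.09 and the TNF receptor Tnfrsf1a at 0.34 ± 0.08, both named after their values were seen. Of 17 tested Akt pathway genes, 1 rose in the 75 mg group, the kinase subunit Pik3cb at 0.42 ± 0.08 (adjusted p = 0.0037, named after its value was seen), and 0 at the lower doses. Akt1, the kinase that Phlda3 restrains, differed by 0.00 ± 0.08, and the related genes Phlda1 and Phlda2 by 0.30 ± 0.14 and -0.20 ± 0.12, none past the test.

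At 75 mg/kg/day, 3 of 9 B cell markers (Cd79b, Blnk and Tnfrsf13c), 1 of 8 natural killer cell markers (Klrb1c) and 1 of 9 smooth muscle markers (Acta2) fell and 1 of 9 neutrophil markers (Csf3r) rose, while none of the other 9 marker lists had a called gene. Of all genes, 1.51% were called lower and 2.64% higher at that dose. The mean over the B cell markers relative to control lay between -0.50 and -0.12 in the 75 mg group and between -0.26 and 0.28 in control. For natural killer cell markers the ranges were -0.68 to -0.13 in the 75 mg group and -0.38 to 0.35 in control. In the 50 mg group the ranges were -0.58 to -0.12 for B cell markers and -0.57 to 0.09 for natural killer cell markers, with no marker called there or in the 25 mg group. Endothelium markers ran higher with treatment, although none of the 10 was called: their mean lay between -0.13 and 0.18 in control, 0.09 and 0.32 in the 25 mg group, 0.02 and 0.45 in the 50 mg group and 0.09 and 0.45 in the 75 mg group. Some lists without a called gene held larger shifts, with a wide spread among controls. Median log2 differences of cardiac muscle markers were -1.13, 0.03 and -1.34 at the 3 doses in rising order. Those of fat cell markers were -1.12, -0.43 and -1.08, and those of airway epithelium markers -1.04, -0.15 and -0.6. For skeletal muscle markers they were -1.65, -1.41 and -1.53, with control mouse 5 far above the other mice. The part of cell composition in the rises of the death and survival genes was not tested at any dose.

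Likeness of pattern was measured as the root mean square difference, over the 14 treated mice, between the rises of a gene and of Phlda3 or Bax above their control means. Among 12314 other genes with a symbol, the nearest to Phlda3 was Ccng1 (0.22), followed by Mmrn2 (0.37), Thyn1 (0.41), Ccdc184 (0.43) and Ephx1 (0.55), beside a median of 1.72 over all candidates. The log2 differences of Ccng1 were 0.89, 1.80 and 2.30 at the 3 doses in rising order, beside 1.02, 1.78 and 2.11 for Phlda3. The nearest to Bax were Dglucy (0.19), Zmat3 (0.21), Ccnd1 (0.21), Rps27l (0.23) and Trib2 (0.24), beside a median of 1.00. Zmat3, a p53-induced zinc finger RNA-binding protein, had log2 differences of 0.37, 0.82 and 1.41, beside 0.57, 0.91 and 1.29 for Bax.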

How the data were processed

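Each lung RNA was labelled with Cy5 and the reference RNA with Cy3, per the labels. Per the file headers, Feature Extraction 10.7.3.1 made the deposited scanner files, which hold intensity values for each spot. The deposited value table holds log2 ratios, and was used as an alternative: over the 19 arrays its columns had medians of -0.053 to -0.033 and followed loess-normalized lung over reference ratios without background subtraction (r 0.995 to 0.998, slope 0.991 to 0.995). Its scale and direction were thus read from the data, and the sources used here do not give its centring.

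Median spot intensities were background corrected with limma 3.58.1 in R 4.3.3 (normexp, offset 50) and normalized within arrays by loess, with control spots at weight 0. Spots marked as outliers (0.29%) were dropped, spots of a probe averaged, and probes kept if 4 or more arrays had lung signal well above background. Symbols came from matching transcript accessions to RefSeq, which named 56.77% of 41174 probes. The brightest probe stood for a gene, giving 19315 genes, 6991 of them under an accession. One limma fit of 4 group means over all 19 arrays gave every comparison, with Benjamini-Hochberg adjustment over all genes and a threshold of 0.05. The slope with dose came from a second limma fit. The code was tested on simulated data. Separate mice are the replicates. The design text gives 5 mice at 50 mg/kg/day, of which 4 were analysed here.

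The 10 genes and the gene lists were chosen with earlier results of these data known. All 10 genes were named, with Trp53, Cdkn1a, Mdm2 and Ccng1, the called genes of each list with an absolute log2 difference of at least 0.5 (at most 4 a list), and the 5 genes nearest in pattern to Phlda3 and to Bax. Other genes were chosen after their values were seen: Bak1, Bid, Bcl2l11, Mcl1, Bcl2l2, Apaf1, Birc2, Birc3, Akt1, Phlda1, Phlda2, Sesn1, Sftpc, Ager, Trp63, the keratins, the called cell type markers and those marked so in the text. Alternatives covered background correction, normalization, the dim-probe filter, the probe rule, the slide as a block, the marked arrays and each mouse in turn. The lung channel alone and leaving out slide 5 were added after seeing the data.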

Additional observations from a re-analysis of the deposited data

Results flagged for a closer look

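Of the 40 sets of values tested (10 genes in 4 dose groups), 3 held a mouse far from the others of its group by Dixon's test, where chance gives about 1 in 20. Bbc3 was 1.65 in mouse 12 at 50 mg/kg/day, against 0.72 to 0.85 in the other 3 mice of that dose. Mouse 12 was on slide 5 and its array was marked for evaluation. Tnfrsf10b was -0.18 in mouse 15 at 50 mg/kg/day, against -0.37 to -0.34 in the other 3. Phlda3 was 2.62 in mouse 16 at 75 mg/kg/day, against 2.22 to 2.28 in the other 4, and the groups stay apart without it.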

How the results depend on the processing

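Of 957 recomputed differences from control of the 10 genes, 899 kept their direction and their side of the threshold, 43 were no longer past it, 11 were newly past it and 4 reversed. The reversed values were those of Fas, whose difference from control was uncalled throughout. They were -0.05 at 25 and -0.12 at 50 mg/kg/day from processed signals, and -0.05 and -0.02 with scaling between arrays. The slope of Fas with dose was called when mouse 20 was left out. Bax, Ei24, Aen, Trp53inp1 and Phlda3 were called at 75 mg/kg/day under all 32 alternatives. Leaving out each mouse in turn, the 10 genes gave 2 to 4 calls at 25, 5 to 6 at 50 and 5 to 7 at 75 mg/kg/day, 4 to 5 for 75 against 25, 0 to 1 for 50 against 25, 0 to 0 for 75 against 50 and 6 to 8 for the slope. All genes gave 3 to 13, 75 to 214, 446 to 978, 47 to 118, 0 to 4, 0 to 0 and 586 to 1039 calls in the same order, and 0 to 1 for curvature.

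Against reported counts over all genes of 10, 209 and 801 at 25, 50 and 75 mg/kg/day, 106 for 75 against 25 and 897 for the slope, processed signals gave 16 at 25, 517 at 50, 1352 at 75, 1 for 75 against 50 and 1591 for the slope. An offset of 10 gave 123 at 50, 511 at 75 and 66 for 75 against 25, and scaling between arrays 4, 88 and 532 at the 3 doses. Median centring gave 0, 9 and 529 at the 3 doses and 12 for 75 against 25. Of the 10 genes it called 0 at 25, 2 at 50 and 0 for 75 against 25. The median log2 difference of all genes was then 0.148, 0.136 and 0.351 at the 3 doses, in place of 0.008, -0.001 and -0.008. The slide as a block gave 406 at 50, 1767 at 75, 293 for 75 against 25 and 1739 for the slope. Without marked arrays there were 3, 95 and 197 (75 against 25), and 1 of the 10 genes at 25. The lung channel alone gave 4 at 25, 100 at 50, 621 at 75 and 67 for 75 against 25, and 2 of the 10 genes at 25. Without slide 5 there were 1 and 124 at 25 and 50, and 1 of the 10 genes at 25. For 50 against 25, the count was 1 with no background subtraction, all arrays, the slide block or the lung channel, and 0 with the other settings named here, the value table or no filter on dim probes. The mean of a gene's probes called 1 of the 10 genes there. The cause of these shifts was not tested. The share of calls that were higher, 68.9% at 50 and 63.7% at 75 mg/kg/day, was 26.7% and 41.9% with processed signals and 99.4% at 75 mg/kg/day with median centring. Mice of different groups share no replicate number, so no block by replicate was made; groups share slides, which were used as a block and for the within-slide values. Dim probes (Tnfrsf10b, the second Aen probe) limit what can be said of those genes.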
